A study of Mus musculus with 32 samples.

Results

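Isolated colon tumors were compared with whole colon late in the same tumor protocol in WT mice: 5 WT tumor libraries (mice 534, 541, 542, 555 and 579) were set against 4 WT D80 colon libraries (mice 541, 542, 555 and 581). These 9 libraries are all of the 32 libraries of the series whose labels give WT tumor, or WT colon late in the AOM/DSS protocol, and 3 of the 6 mice (541, 542 and 555) gave both tissues. All animals were C57BL/6 mice with both copies of *Dnase1l3* intact. They received a single injection of azoxymethane (AOM, a colon carcinogen) at 8 mg/kg at 3 months of age, followed a week later by 3 cycles of 2.5% dextran sulfate sodium (DSS, which injures the colon epithelium) in the drinking water for 7 days and 14 days of plain water. The tumors were the final tumors of the procedure, and the D80 samples were whole colon at day 80. Both groups therefore shared the carcinogen and the colitis, and they differed in the tissue taken. The day of tumor collection, how many tumors entered a library, and whether the colon pieces still held tumors were not stated. For comparison, the series also holds 3 tumor and 4 D80 colon libraries of *Dnase1l3*-/- (KO) mice under the same protocol. RNA was sequenced in bulk, so fewer cells of a type and less RNA per cell cannot be told apart in any result.

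The colon epithelium is renewed from stem cells at the crypt base, which Wnt signals keep dividing. Wnt ligands stabilize β-catenin, which with TCF/LEF factors switches on target genes, among them inhibitors that feed back on the pathway (*Axin2*, *Nkd1*, *Notum*, *Rnf43*, *Znrf3*). Cells that leave the crypt base become absorptive colonocytes, goblet cells, enteroendocrine cells or tuft cells. AOM with DSS is known for tumors that carry activating lesions of this pathway, and under the epithelium lie fibroblasts, immune cells, the smooth muscle layers and the enteric nervous system.

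The libraries held 30501372 to 37635047 counts in the tumors and 29955789 to 45323252 in the D80 colons. WT D80 colon 581 stood apart from the others. Mitochondrially encoded mRNAs made up 1.501% to 4.16% of counts in the tumors, 5.37% to 5.77% in 3 of the colons and 14.8% in colon 581, which was also separated on the second principal component (26.9% of the variance, with 57.4% on the first). The median SD of log2 CPM (CPM is the count of a gene relative to the library's total, scaled by TMM) was 0.27 among tumors, 0.57 among D80 colons and 0.13 among the 3 colons other than 581. Colon 581 also had the fewest genes with a count, 23167 against 26777 to 28001 in the other colons, and a TMM factor of 0.525 against 1.01 to 1.05. Its log2 difference from the other colons fell with gene length (Spearman's rho -0.504 across genes, which are not independent), and the same rho was 0.409 to 0.496 for the other colons, each set against a mean that includes 581. The part of these differences in the results was not tested. List counts, and fold changes of the called genes named here, that move by more than 1.5 times without 581 are given with and without it. Markers of the epithelium as a whole, such as cadherins and keratins of simple epithelium, were called in few cases: of 18 pan-epithelial genes tested, 0 rose and 1 fell (0 to 2 fell with a library left out), the median change was 0.02 (log2), and their summed level was 13183 to 17737 CPM in tumors and 16129 to 20608 CPM in colons. Without colon 581 that median was -0.185.

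Of 19007 genes tested, 1520 (8.00%) rose and 2570 (13.5%) fell in tumors. Below, a gene rose or fell where its fold change exceeded 2 with an adjusted p below 0.05. Each list count below is to be read beside these shares of all genes tested, also where they are not repeated. The median log2 fold change of all genes tested was -0.06. Groups that did not overlap, with each tumor above each colon or below each colon, were found for 16.6% of genes in the first direction and 16.6% in the second. Changes over 16-fold numbered 114 upward and 280 downward. Without WT D80 colon 581, 1743 genes rose and 3259 fell of 19697 tested, and 1351 and 2282 of these were among those called with it. Per-library values below follow the mice in ascending order, 534, 541, 542, 555 and 579 for tumors and 541, 542, 555 and 581 for D80 colons.

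**Figure D1:**
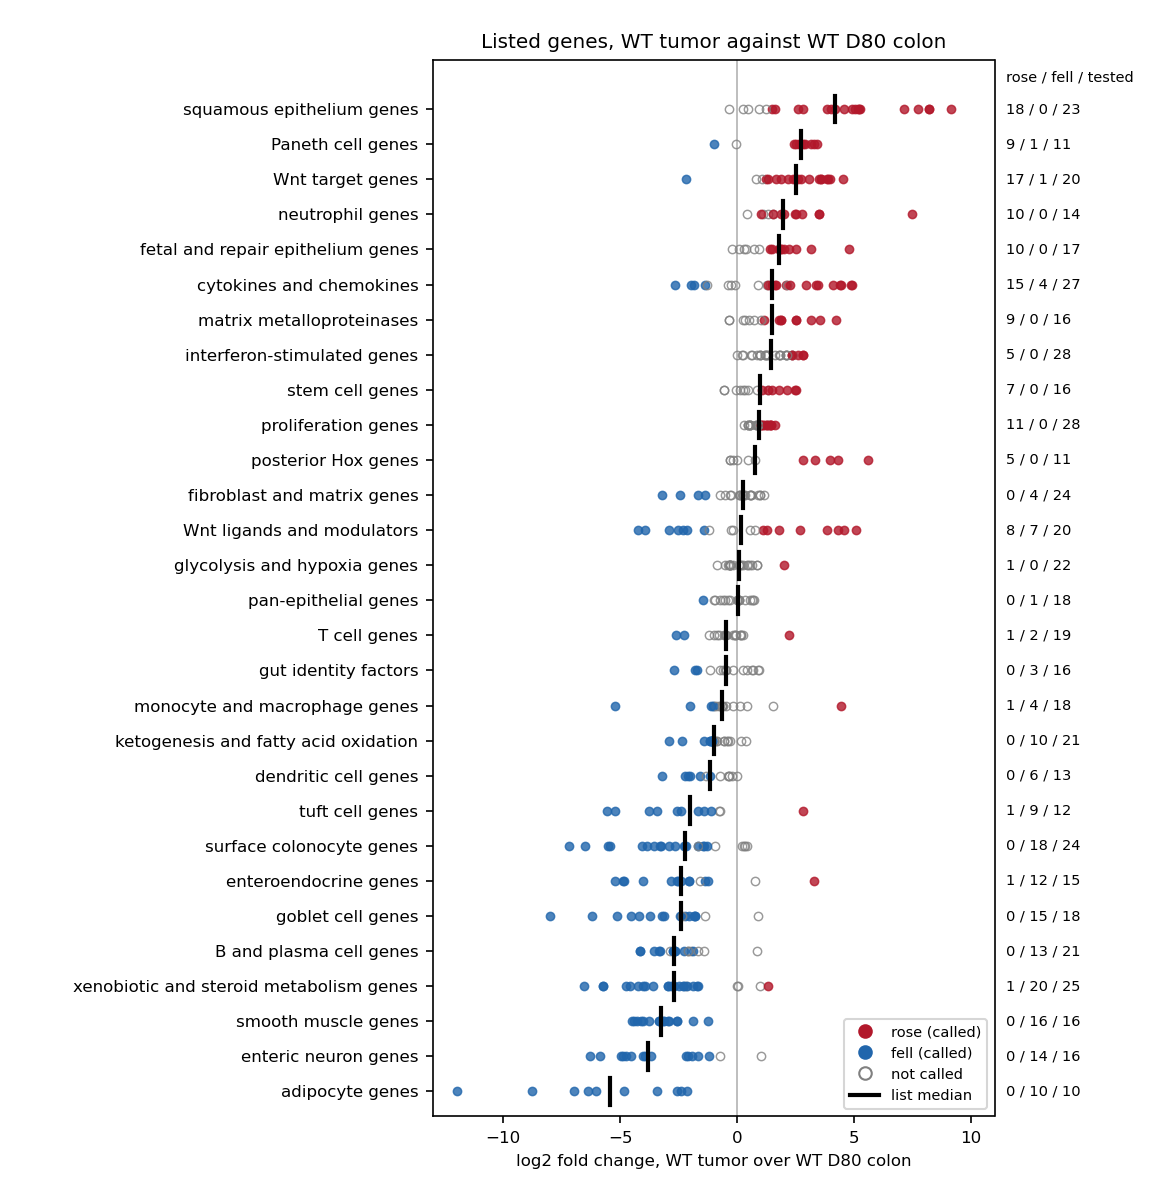
Log2 fold change of WT tumor over WT D80 colon (x axis) for each tested member of the gene lists drawn (rows, ordered by their median, thick bar); filled points rose or fell, open points did not, and the counts of rose, fell and tested stand at the right. Squamous, Paneth cell and Wnt target genes lie at the top, and smooth muscle, enteric neuron and adipocyte genes at the bottom, where 16 of 16, 14 of 16 and 10 of 10 tested members fell.

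Wnt target genes were higher in tumors. Of 20 tested, 17 rose and 1 fell, with a median change of 2.54 (log2), and in 19 of them each tumor lay above each colon. *Apcdd1*, a membrane protein that inhibits Wnt signaling, stood at 102, 281, 213, 243 and 268 CPM in tumors against 6.06, 17.9, 9.997 and 4.07 CPM in D80 colons (log2 fold change 4.54, SE 0.52, adjusted p = 0.000371). The D80 colon of mouse 542 was the highest of the colons, and the lowest tumor was still several-fold above it. *Nkd1*, an inhibitor that binds Dishevelled, measured 181, 278, 267, 289.7 and 358 CPM in tumors against 17.2, 52.2, 21.2 and 6.05 CPM in D80 colons (log2 fold change 3.50, SE 0.56, adjusted p = 0.00157). *Wif1*, which binds Wnt proteins outside the cell, gave 181, 245, 285, 298 and 470.1 CPM in tumors against 10.6, 59.8, 17.7 and 11.6 CPM in D80 colons (log2 fold change 3.57, SE 0.59, adjusted p = 0.00185). The transcription factor *Lef1*, a partner of β-catenin, had 12, 11.1, 12.9, 18.4 and 22.2 CPM in tumors against 0.806, 2.54, 1.4 and 0.255 CPM in D80 colons (log2 fold change 3.58, SE 0.54, adjusted p = 0.0012). *Bambi* and *Tnfrsf19*, a TGF-β pseudoreceptor and a TNF receptor family member, rose by 2.46 and 2.41 on the log2 scale. Of feedback inhibitors and targets named after their values were seen, *Axin2* averaged 174 ± 32 CPM in tumors and 26.4 ± 20.03 CPM in D80 colons (SD, n = 5 and 4; log2 fold change 2.72, adjusted p = 0.00651). *Notum*, a secreted enzyme that inactivates Wnt proteins, averaged 106 ± 38.9 CPM in tumors and 7.41 ± 8.24 CPM in D80 colons (SD, n = 5 and 4; log2 fold change 3.84, adjusted p = 0.00263). The transcription factor *Sp5* averaged 40.5 ± 5.05 CPM in tumors and 2.67 ± 3.07 CPM in D80 colons (SD, n = 5 and 4; log2 fold change 3.90, adjusted p = 0.00227). *Nkd2*, the paralog of *Nkd1*, went the other way, at 0.935, 2.24, 1.24, 1.37 and 1.59 CPM in tumors against 7.45, 7.42, 10.2 and 1.34 CPM in D80 colons (log2 fold change -2.17, SE 0.48, adjusted p = 0.00827). The groups overlapped for it through colon 581. The members that did not pass, also named after their values were seen, were *Ccnd1* (log2 fold change 0.81, SE 0.24, adjusted p = 0.0279) and *Ephb2* (log2 fold change 1.05, SE 0.48, adjusted p = 0.129). The summed level of the list was 1742 to 2714 CPM in the tumors and at most 707 CPM in the colons, in colon 542. Without colon 542 the log2 fold changes of *Nkd1*, *Wif1*, *Tnfrsf19*, *Notum* and *Sp5* were 4.20, 4.47, 3.05, 4.99 and 5.07.

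Sequences that bear on this pathway are shown because the core motif read by TCF/LEF factors, CTTTGAT, could be looked for on both strands of the 250 bases before each RefSeq start (GRCm38.p6). It was present in 1053 of 32851 such windows (3.21%) and in 2 of the 21 windows of the 14 Wnt target genes found there, those of *Sp5* (chr2:70474673-70474922, plus strand) and of a start inside the gene *Tnfrsf19* (chr14:61037988-61038237, minus strand). Capitals mark the match, which in *Tnfrsf19* is on the opposite strand to the gene. A match is a stretch of letters and was not tested for binding.
Sp5: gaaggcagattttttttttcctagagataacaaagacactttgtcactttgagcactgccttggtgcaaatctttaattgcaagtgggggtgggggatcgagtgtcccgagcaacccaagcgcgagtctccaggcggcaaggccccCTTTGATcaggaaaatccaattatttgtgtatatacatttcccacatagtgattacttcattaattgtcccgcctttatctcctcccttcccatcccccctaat
Tnfrsf19: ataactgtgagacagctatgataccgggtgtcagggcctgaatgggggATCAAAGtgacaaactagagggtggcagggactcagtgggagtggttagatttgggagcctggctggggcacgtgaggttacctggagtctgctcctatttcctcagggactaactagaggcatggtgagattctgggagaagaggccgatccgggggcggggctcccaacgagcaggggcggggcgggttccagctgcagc

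Wnt ligands and modulators split into those that rose and those that fell, with 8 of 20 tested up and 7 down. The median log2 fold change was 0.17, or -0.006 without WT D80 colon 581. *Wnt6* and *Wnt10a*, ligands whose genes are neighbors on chromosome 1 of GRCm38 (74771892 to 74785322 and 74791516 to 74804179, plus strand), rose together. *Wnt6* measured 17.9, 56.1, 40.4, 50.3 and 55.4 CPM in tumors against 1.39, 4.73, 1.89 and 0.827 CPM in D80 colons (log2 fold change 4.30, SE 0.56, adjusted p = 0.00066). *Wnt10a* measured 19.9, 38.7, 24, 28.3 and 40.9 CPM in tumors against 0.523, 2.41, 0.518 and 0.0636 CPM in D80 colons (log2 fold change 5.06, SE 0.73, adjusted p = 0.00101). *Wnt7b*, another ligand, was at 4.13, 4.4, 4.76, 1.06 and 7.18 CPM in tumors against 0.153, 0.34, 0.155 and 0 CPM in D80 colons (log2 fold change 4.59, SE 0.69, adjusted p = 0.00126). The Dickkopf family member *Dkk2*, named after its value was seen, averaged 61.9 ± 18.4 CPM in tumors and 4.26 ± 4.27 CPM in D80 colons (SD, n = 5 and 4; log2 fold change 3.85, adjusted p = 0.00179). The R-spondins, which amplify Wnt signals through LGR receptors and come mainly from stromal cells, were lower in tumors. *Rspo3* averaged 1.08 ± 0.423 CPM in tumors and 4.72 ± 1.23 CPM in D80 colons (SD, n = 5 and 4; log2 fold change -2.12, adjusted p = 0.00142). *Rspo1* averaged 0.0447 ± 0.0706 CPM in tumors and 0.923 ± 0.321 CPM in D80 colons (SD, n = 5 and 4; log2 fold change -4.25, adjusted p = 0.00205). *Rspo2* averaged 0.0252 ± 0.0296 CPM in tumors and 0.46 ± 0.136 CPM in D80 colons (SD, n = 5 and 4; log2 fold change -3.95, adjusted p = 0.00138). *Rspo4* was too low to test. *Wnt2b*, a stromal ligand, fell as well (log2 fold change -2.51, SE 0.38, adjusted p = 0.00129), as did the secreted antagonist *Sfrp1*, at 9.35, 14.1, 10.9, 14 and 9.95 CPM in tumors against 67.2, 86.5, 46 and 29.1 CPM in D80 colons (log2 fold change -2.29, SE 0.31, adjusted p = 0.000701). Without WT D80 colon 555, 5 of the 20 rose. With tumor 555 left out the log2 fold changes of *Rspo1* and *Rspo2* were -5.82 and -4.75. The log2 fold changes of *Wnt6*, *Wnt10a* and *Dkk2* were 4.97, 6.21 and 4.80 without colon 542.

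**Figure D2:**
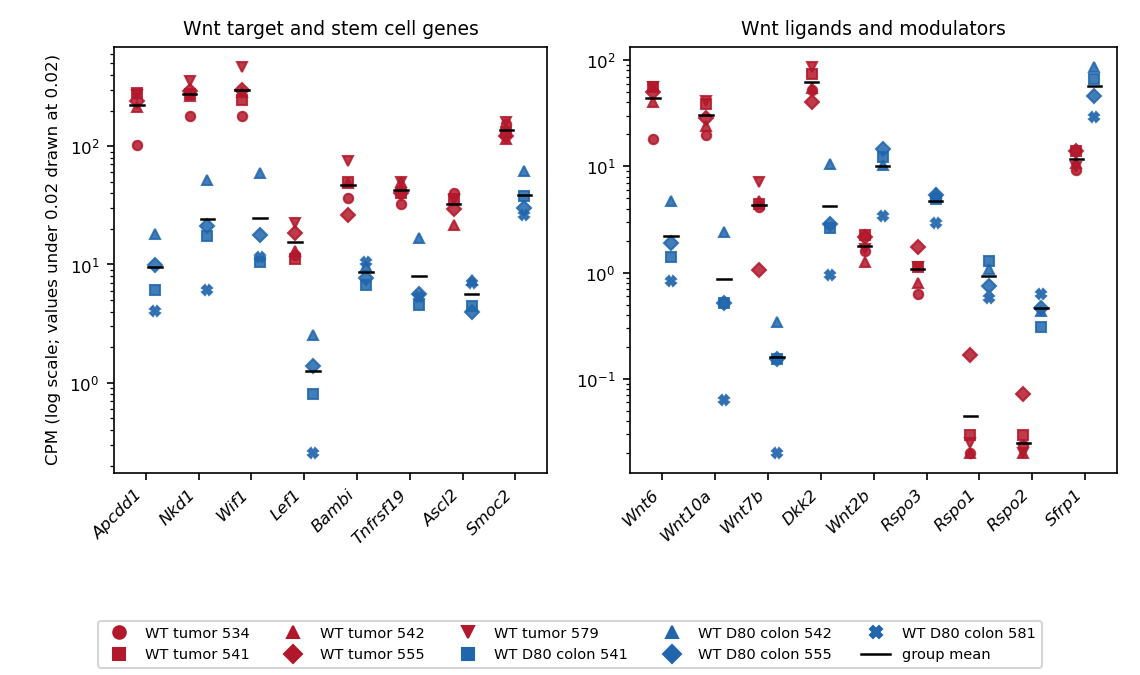
CPM on a log scale (y axis) of Wnt target and stem cell genes (left) and of Wnt ligands and modulators (right) in each WT tumor (red, left of each pair) and each WT D80 colon (blue), with group means as black lines. Tumor and colon values do not overlap for any gene drawn, but most were chosen for a small p, which favors such genes. Over the whole lists each tumor lay above each colon for 19 of 20 Wnt target and 9 of 16 stem cell genes. Of 20 Wnt ligands and modulators, 9 lay above and 6 below in this way. Colon 542 is the highest colon for most Wnt targets, and *Rspo1*, *Rspo2*, *Rspo3*, *Wnt2b* and *Sfrp1* are lower in the tumors.

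Stem cell genes rose in 7 of 16 tested, with 0 that fell (1 with the mouse as a block) and a median log2 fold change of 0.96. *Ascl2*, the transcription factor of crypt base stem cells, had 40.1, 35.8, 21.6, 29.5 and 35.4 CPM in tumors against 4.42, 7.36, 3.94 and 7.0 CPM in D80 colons (log2 fold change 2.52, SE 0.28, adjusted p = 0.000331). *Smoc2* and *Igfbp4*, secreted proteins of the stem cell signature, rose by 1.81 and 1.48 on the log2 scale. *Lgr5*, the R-spondin receptor that marks these cells, was named after its value was seen and averaged 42.4 ± 7.46 CPM in tumors and 9.77 ± 10.3 CPM in D80 colons (SD, n = 5 and 4; log2 fold change 2.11, adjusted p = 0.0239). Its adjusted p was 0.069 without colon 541 and 0.0667 without colon 555. Genes of the fetal or repairing epithelium rose in 10 of 17 tested, 0 fell, and the median was 1.77. *Anxa1* (1.89), *Krt7* (1.77), *Plaur* (1.88) and the tight junction gene *Cldn4* (2.20) rose on the log2 scale by the values in parentheses. Proliferation genes rose in 11 of 28 tested and fell in 0, with a median of 0.94. *Ccne1* and *E2f1*, drivers of entry into S phase, rose by 1.44 and 1.29 and the mitotic kinase gene *Aurkb* by 1.29 on the log2 scale, and in 19 of the 28 each tumor lay above each colon. Without colon 542 the log2 fold change of *Lgr5* was 3.14.

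The posterior Hox genes, which pattern the hindgut, changed by cluster. All 5 tested members of the posterior HoxD cluster rose, and none of the 6 posterior HoxA and HoxB members passed, which lay between -0.32 and 0.77 on the log2 scale. *Hoxd12* had 26.2, 17, 11.6, 33.6 and 37.3 CPM in tumors against 0.392, 0.0927, 0.803 and 0.891 CPM in D80 colons (log2 fold change 5.58, SE 0.63, adjusted p = 0.000371). *Hoxd13*, at the end of the cluster (chromosome 2, 74668310 to 74671599, plus strand), had 135, 92.3, 53.2, 111 and 109 CPM in tumors against 7.39, 2.04, 11 and 19.6 CPM in D80 colons (log2 fold change 3.33, SE 0.58, adjusted p = 0.00239). None of the groups overlapped for these or for the other 3 posterior HoxD genes. *Hoxd11* had 9.74, 12.6, 6.46, 16.4 and 10.3 CPM in tumors against 0.61, 0.247, 0.932 and 0.382 CPM in D80 colons (log2 fold change 4.30, SE 0.44, adjusted p = 0.000295). *Hoxd10* had 9.45, 9.33, 6.48, 12.1 and 10.1 CPM in tumors against 0.458, 0.247, 0.958 and 0.827 CPM in D80 colons (log2 fold change 3.95, SE 0.40, adjusted p = 0.000296). *Hoxd9* had 3.62, 4.72, 3.12, 2.84 and 3.6 CPM in tumors against 0.61, 0.495, 0.466 and 0.445 CPM in D80 colons (log2 fold change 2.81, SE 0.26, adjusted p = 0.000197). *Hoxd8*, next in the cluster and counted with the anterior genes, rose by 1.22 on the log2 scale (adjusted p = 0.0168), and by 0.94 with limma's voom (adjusted p = 0.000576), where its fold change was under 2. Of the other clusters, *Hoxb13* was at a log2 fold change of 0.46 and *Hoxa13* at -0.32, neither past the threshold. Counts for 5 posterior HoxC genes were too low to test. Of the 14 anterior Hox genes tested 2 rose and 1 fell, beside 8.00% and 13.5% of all genes tested. The gene that fell was *Hoxb5*, at 1.1, 0.384, 0.323, 0.193 and 0.428 CPM in tumors against 2.31, 2.32, 4.17 and 1.91 CPM in D80 colons (log2 fold change -2.45, SE 0.48, adjusted p = 0.00413). Without WT D80 colon 581, 1 anterior gene rose and 4 fell, with the mouse as a block 1 rose and 3 fell, and 1 rose when any other library except colon 542 or tumor 579 was left out.

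**Figure D3:**
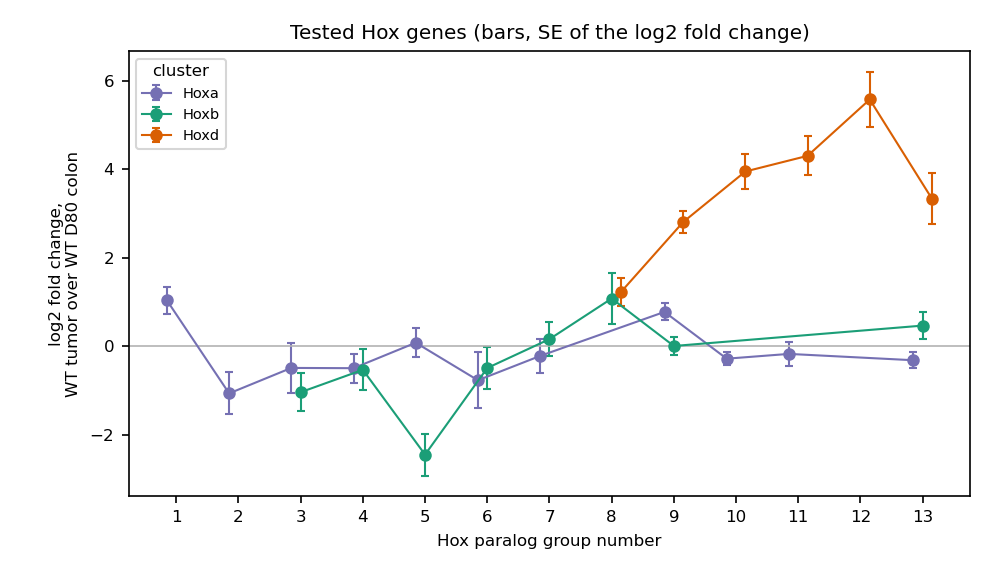
Log2 fold change of WT tumor over WT D80 colon (y axis, bars are its SE) for each tested Hox gene by paralog group number (x axis) and cluster (color). The posterior HoxD genes, 9 to 13, stand between 2.81 and 5.58, above the HoxA and HoxB genes of the same numbers.

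Markers of goblet cells, colonocytes, enteroendocrine cells and tuft cells were lower in tumors. Of 18 goblet cell genes 15 fell and 0 rose (1 rose without WT D80 colon 581 or with the mouse as a block), and the median change was -2.41 (log2). The gel-forming mucin gene *Muc2* had 710.2, 418, 1057, 1179 and 728 CPM in tumors against 4324, 4297, 3438 and 5042 CPM in D80 colons (log2 fold change -2.38, SE 0.33, adjusted p = 0.000852). *Clca1*, a secreted protease of mucus, had 479, 95.3, 368, 845 and 415 CPM in tumors against 19545, 11917, 8087 and 21744 CPM in D80 colons (log2 fold change -5.12, SE 0.63, adjusted p = 0.000498), and *Fcgbp*, a mucus structural protein, fell by 3.13 on the log2 scale. *Spdef*, the transcription factor of goblet cell maturation, had 15.6, 12.8, 22.9, 19.6 and 12 CPM in tumors against 70.1, 77.3, 74 and 50.4 CPM in D80 colons (log2 fold change -2.04, SE 0.24, adjusted p = 0.000421). *Retnlb*, an antibacterial goblet cell product, spanned 5.01 to 18.5 CPM in tumors and 147 to 8801 CPM in colons, where 581 was the highest (log2 fold change -8.01, SE 1.18, adjusted p = 0.00112), and it fell by 6.27 without 581. Of 24 surface colonocyte genes 18 fell and 0 rose, with a median of -2.24. *Aqp8*, a water channel, had 14.9, 4.34, 4.25, 17.8 and 3.1 CPM in tumors against 467, 301, 675 and 1770.5 CPM in D80 colons (log2 fold change -6.50, SE 0.79, adjusted p = 0.000475). The carbonic anhydrase gene *Car4* had 29, 6.32, 7.16, 39.3 and 11.2 CPM in tumors against 635, 392, 818 and 1611 CPM in D80 colons (log2 fold change -5.54, SE 0.70, adjusted p = 0.00057). *Aqp4*, *Slc9a2* and *Guca2a*, a water channel, a sodium exchanger and the guanylin precursor, fell by 3.24, 2.18 and 4.07 on the log2 scale. With colon 581 left out the log2 fold changes of *Aqp8* and *Guca2a* were -5.76 and -3.41.

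Enteroendocrine genes fell in 12 of 15 tested and rose in 1, and the count that fell was 7 without WT D80 colon 555 and 7 without WT tumor 534. *Gcg*, the precursor of GLP-1, had 2.33, 0.177, 0.269, 2.65 and 1.74 CPM in tumors against 39.2, 25, 34 and 72.7 CPM in D80 colons (log2 fold change -4.88, SE 0.75, adjusted p = 0.00138). *Sst*, encoding somatostatin, had 0.432, 0.0886, 0.0269, 0.409 and 0.328 CPM in tumors against 7.39, 8.13, 6.71 and 8.02 CPM in D80 colons (log2 fold change -4.84, SE 0.54, adjusted p = 0.000353). *Isl1*, a LIM homeobox factor of endocrine cells, moved the opposite way, at 13, 24.7, 16.8, 4.55 and 15.2 CPM in tumors against 1.63, 1.08, 1.37 and 1.97 CPM in D80 colons (log2 fold change 3.30, SE 0.46, adjusted p = 0.000818). Of 12 tuft cell genes 9 fell and 1 rose. The taste channel gene *Trpm5* had 0.863, 0.561, 0.377, 1.11 and 0.756 CPM in tumors against 8.28, 6.68, 7.41 and 9.35 CPM in D80 colons (log2 fold change -3.42, SE 0.31, adjusted p = 0.000197), and *Pou2f3*, the factor that specifies tuft cells, fell by 3.76 and *Dclk1* by 2.38 on the log2 scale. *Avil*, encoding the actin-binding protein advillin, was the exception, with 54.7, 83.4, 55.8, 61.3 and 109 CPM in tumors against 8.04, 18.9, 10.6 and 3.18 CPM in D80 colons (log2 fold change 2.83, SE 0.47, adjusted p = 0.00195). Among gut identity factors 3 of 16 fell, where 13.5% of all genes tested fell. The count was 5 of 16 without WT D80 colon 581 or with the mouse as a block. *Cdx2*, the intestinal homeobox gene, had 7.03, 10.7, 19.5, 21.5 and 8.87 CPM in tumors against 92.1, 113, 104 and 45.6 CPM in D80 colons (log2 fold change -2.71, SE 0.40, adjusted p = 0.0011), whereas its paralog *Cdx1* had 138, 124, 125, 142 and 88 CPM in tumors against 181, 154, 196 and 152 CPM in D80 colons and did not pass (log2 fold change -0.47, adjusted p = 0.088). *Hnf4g* fell by 1.81 on the log2 scale.

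Enzymes that mature colonocytes use to clear foreign compounds and steroids were lower as a group. In this list 20 of 25 tested fell and 1 rose (2 without WT D80 colon 542), with a median change of -2.70 (log2). *Cyp2c65*, a cytochrome P450, had 0.456, 1.09, 0.834, 1.52 and 0.857 CPM in tumors against 46.1, 46.8, 42.1 and 68.5 CPM in D80 colons (log2 fold change -5.74, SE 0.35, adjusted p = 4.48e-05). *Cyp2c55*, another of that family, fell by 6.54 and *Aldh1a1*, which makes retinoic acid, by 3.60 on the log2 scale. *Gsta4*, a glutathione transferase, was the member that rose (1.32, adjusted p = 0.00435). Of 21 genes of ketogenesis and fatty acid oxidation 10 fell and 0 rose, or 6 without WT D80 colon 581 and 3 with the mouse as a block. *Ppara*, the nuclear receptor that drives these genes in liver, had 0.60, 0.295, 0.484, 0.867 and 0.731 CPM in tumors against 4.29, 5.53, 6.42 and 1.53 CPM in D80 colons (log2 fold change -2.90, SE 0.44, adjusted p = 0.00125). Of 22 glycolysis and hypoxia genes 1 rose and 0 fell, the lactate exporter gene *Slc16a3*, at 78.6, 136, 86.4, 85.2 and 148 CPM in tumors against 26, 38.9, 16.4 and 26.5 CPM in D80 colons (log2 fold change 1.99, SE 0.31, adjusted p = 0.0014), and the median was 0.08. Of 14 claudins 2 rose and 2 fell, or 1 fell without colon 581, tumor 542 or tumor 579. Of all genes tested 8.00% rose and 13.5% fell. *Cldn6*, an embryonic claudin, rose by 4.43 and *Cldn15*, which forms sodium channels between gut cells, fell by 3.68 on the log2 scale. The log2 fold change of *Cyp2c55* was -7.14 without tumor 555. Without colon 542 the log2 fold change of *Cldn6* was 5.11.

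Of the 12 largest decreases several were highest in WT D80 colon 581, and their size depends on it. *Mptx1*, a mucosal pentraxin, had 45.5, 4.84, 12.9, 15.6 and 8.99 CPM in tumors against 4571, 1671, 644 and 62781 CPM in D80 colons (log2 fold change -9.95, SE 1.64, adjusted p = 0.00183), and its log2 fold change was -7.03 without 581. *Mptx2*, its paralog, had 4.46, 1.3, 2.34, 2.0 and 0.781 CPM in tumors against 419.6, 154, 58.4 and 5756 CPM in D80 colons (log2 fold change -9.52, SE 1.52, adjusted p = 0.00162), and -6.59 without 581. Colon 555 was the lowest colon for both. *Retnla*, a resistin-like molecule, had 0.024, 0, 0, 0.0482 and 0 CPM in tumors against 9.52, 6.8, 5.46 and 91.6 CPM in D80 colons (log2 fold change -10.55, SE 1.32, adjusted p = 0.000536), and -8.62 without 581. *Pla2g4c*, a phospholipase A2, had 1.39, 1.39, 1.29, 1.47 and 2.09 CPM in tumors against 70.1, 182, 2.12 and 844 CPM in D80 colons (log2 fold change -7.49, SE 1.30, adjusted p = 0.00239), and -5.80 without 581, with colon 555 close to the tumors and an adjusted p of 0.0825 with voom. *Slc30a10*, a manganese exporter, gave -7.17, and -5.58 without 581. Others moved less when 581 was left out. *Fabp2*, the intestinal fatty acid-binding protein, had 2.45, 1.03, 1.99, 4.77 and 2.72 CPM in tumors against 134, 183, 196 and 482 CPM in D80 colons (log2 fold change -6.58, SE 0.56, adjusted p = 0.000159), and -6.04 without 581. The neuropeptide gene *Nmu* and *Ctxn3* fell with log2 fold changes of -7.20 and -7.11, or -6.35 and -6.68 without 581. With tumor 534 left out the log2 fold changes of *Mptx1* and *Slc30a10* were -10.69 and -8.04. The log2 fold change of *Retnla* was -11.46 without tumor 555. Without tumor 579 the log2 fold change of *Ctxn3* was -7.74.

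**Figure D4:**
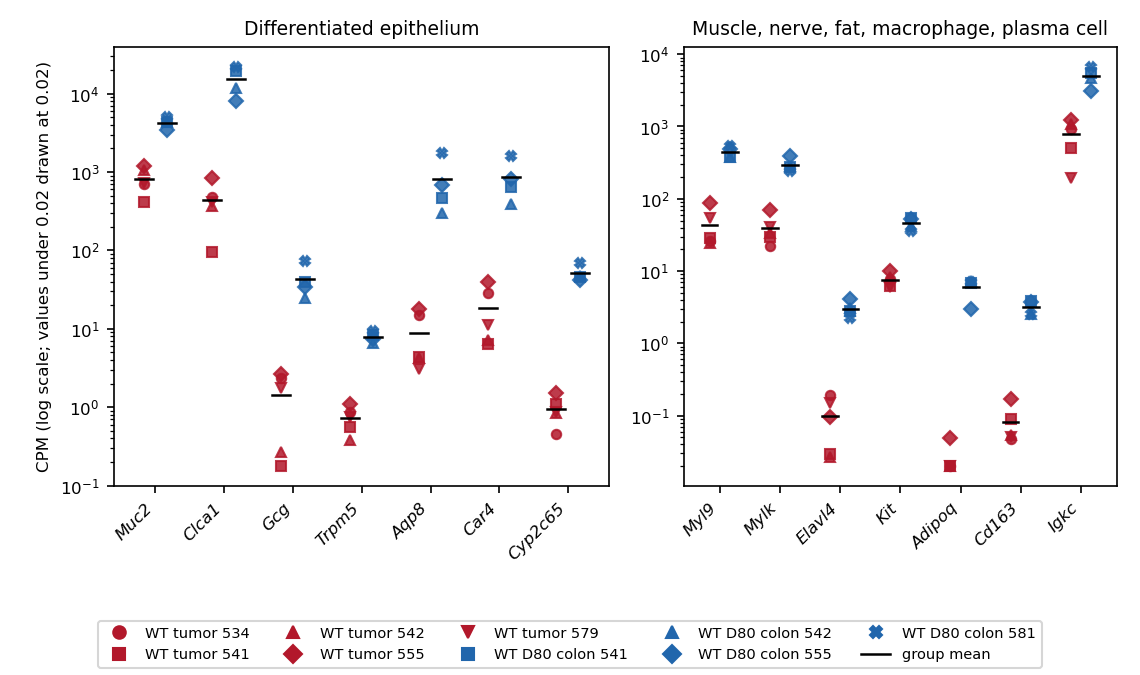
CPM on a log scale (y axis) of differentiated epithelium genes (left) and of muscle, nerve, fat, macrophage and plasma cell genes (right) in each WT tumor (red, left of each pair) and each WT D80 colon (blue), with group means as black lines. Each tumor lies below each colon for every gene drawn, from *Muc2* at 418 to 1179 CPM against 3438 to 5042 CPM to *Adipoq*, which had counts in 1 of the 5 tumors. Most were chosen for a small p, which favors such genes. Over the whole lists this held for 13 of 18 goblet cell, 6 of 15 enteroendocrine and 7 of 18 monocyte and macrophage genes. *Isl1*, *Avil* and *Arg1*, which rose, are not drawn.

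Paneth cell genes, many of which code for antimicrobial proteins of the small intestine that are not typical of the colon, were higher in tumors: 9 of 11 rose and 1 fell (0 fell without colon 542, colon 581 or tumor 534, 555 or 579, or with the mouse as a block), and the median change was 2.71 (log2). The member that fell was neither a lysozyme nor an α-defensin gene. *Pla2g2a*, a secreted phospholipase, had 161, 312, 169.9, 113 and 151 CPM in tumors against 29.1, 49.8, 16.3 and 19.9 CPM in D80 colons (log2 fold change 2.65, SE 0.41, adjusted p = 0.00145). *Lyz1*, Paneth cell lysozyme, had 1052, 1388, 1286, 938 and 902 CPM in tumors against 137, 553, 81 and 54.3 CPM in D80 colons (log2 fold change 2.43, SE 0.64, adjusted p = 0.0179). The α-defensin gene *Defa21* had 8.13, 24.2, 21.4, 15.1 and 11 CPM in tumors against 1.44, 5.04, 0.414 and 0.0636 CPM in D80 colons (log2 fold change 3.17, SE 0.85, adjusted p = 0.0195), and α-defensins have near-identical copies, so reads may be split among them. Among colons 542 was the highest for each of these 3 genes, and the number that rose was 1 without WT D80 colon 541, 4 without colon 555, 4 without WT tumor 541 and 5 without tumor 542. Without colon 541 the adjusted p was 0.0552 for *Lyz1*, 0.0583 for *Defa21* and 0.00652 for *Pla2g2a*. Of 9 gastric-type mucins and trefoils tested 5 rose, among them *Muc1*, at 65.2, 37, 78.2, 40.1 and 30.6 CPM in tumors against 11.8, 21.5, 7.25 and 3.69 CPM in D80 colons (log2 fold change 2.18, SE 0.50, adjusted p = 0.00939), and 1 fell without WT D80 colon 581 or with the mouse as a block. With colon 542 left out the log2 fold changes of *Lyz1* and *Defa21* were 3.62 and 4.51.

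Squamous epithelium genes, which belong to stratified epithelia such as skin and the anal canal, were higher in tumors and uneven among them. Of 23 tested, 18 rose and 0 fell, and the median change was 4.18 (log2). *Krt5*, a keratin of basal squamous cells (chromosome 15, 101707070 to 101712898, minus strand), had 153, 341, 417, 0.578 and 27.6 CPM in tumors against 0.37, 0.464, 0.129 and 0.382 CPM in D80 colons (log2 fold change 9.14, SE 1.71, adjusted p = 0.00349). Tumors 534, 541 and 542 were high, 579 was intermediate, and tumor 555 was close to the highest colon. Over all genes tested, tumor 555 was also the tumor nearest the colons on the first principal component. It lay at -41.2 there, the other tumors at -79.9 to -104.2 and the colons at 59.9 to 163.6. The adjusted p of *Krt5* was 0.0559 with voom. The gene of its partner keratin, *Krt14*, had 200.1, 412, 408, 69 and 143 CPM in tumors against 5.06, 9.92, 5.75 and 5.03 CPM in D80 colons (log2 fold change 5.25, SE 0.61, adjusted p = 0.000401). *Krt6a* had 145, 209.9, 322, 3.66 and 28.5 CPM in tumors against 0.501, 0.742, 0.207 and 0.445 CPM in D80 colons (log2 fold change 8.22, SE 1.32, adjusted p = 0.00166), and *Krt13* had 137, 144, 269, 25.3 and 55 CPM in tumors against 1.44, 5.26, 2.67 and 4.52 CPM in D80 colons (log2 fold change 5.19, SE 0.76, adjusted p = 0.00111). *Trp63*, the transcription factor of the squamous lineage, had 6.93, 7.59, 19.6, 0.0963 and 1.11 CPM in tumors against 0.0218, 0.0309, 0.0518 and 0 CPM in D80 colons (log2 fold change 7.73, SE 1.57, adjusted p = 0.00519). The same order of tumors, from 555 up through 579, 534 and 541 to 542, was seen for *Tmprss11g*, *Tmprss11d*, *Sprr2d* and *Krt6b*, which have log2 fold changes of 9.56, 9.51, 8.59 and 8.195 and are among the 12 largest increases. Whether the tissue taken lay near the anal canal was not stated and was not tested. *Col17a1*, a hemidesmosome collagen of basal cells, had 11, 21.3, 35.9, 2.34 and 6.12 CPM in tumors against 0.283, 0.309, 0.129 and 0.0636 CPM in D80 colons (log2 fold change 6.16, SE 0.90, adjusted p = 0.00111). For the other 2 described here each tumor, 555 included, lay more than 10-fold above each colon. The largest increases were named by a rule that required each tumor above each colon, so only the size of that gap is a result. *Serpinb11*, a serpin, had 28, 27.8, 42.9, 17.3 and 35 CPM in tumors against 0.262, 1.39, 0.311 and 0.445 CPM in D80 colons (log2 fold change 5.64, SE 0.57, adjusted p = 0.000295). The proton channel gene *Otop1* had 6.43, 21.3, 7.34, 6.14 and 13 CPM in tumors against 0.109, 0.495, 0.129 and 0.0636 CPM in D80 colons (log2 fold change 5.70, SE 0.67, adjusted p = 0.000427). The log2 fold changes of *Tmprss11g* and *Sprr2d* were 8.58 and 7.93 without tumor 542. Without colon 541 the log2 fold change of *Sprr2d* was 9.95. With colon 542 left out the log2 fold changes of *Tmprss11d*, *Serpinb11* and *Otop1* were 11.97, 6.53 and 6.61.

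**Figure D5:**
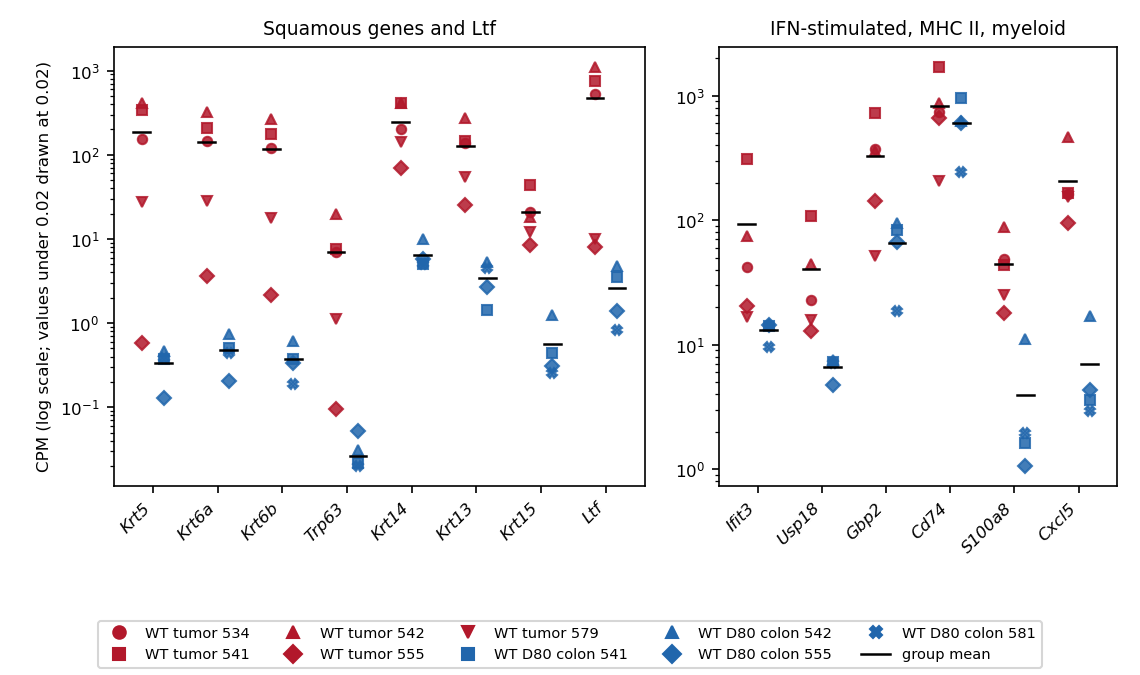
CPM on a log scale (y axis) of squamous genes and *Ltf* (left) and of IFN-stimulated, MHC class II and myeloid genes (right) in each WT tumor (red, left of each pair, a shape per mouse) and each WT D80 colon (blue), with group means as black lines. Tumor 555 is lowest for the squamous genes, tumors 555 and 579 are low for *Ltf*, and tumor 541 is highest for *Ifit3*, *Usp18*, *Gbp2* and *Cd74*.

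Muscle, nerve and fat markers, which belong to the colon wall outside the epithelium, were lower in tumors. All 16 smooth muscle genes fell, and the median change was -3.25 (log2). *Myl9*, a regulatory light chain of smooth muscle myosin, had 25.8, 28.8, 24.7, 86.4 and 54.1 CPM in tumors against 379, 373, 489 and 540.4 CPM in D80 colons (log2 fold change -3.34, SE 0.41, adjusted p = 0.000482). *Mylk*, the kinase that activates it, had 22.3, 29.8, 33.2, 70.4 and 41.3 CPM in tumors against 274, 282, 389 and 239 CPM in D80 colons (log2 fold change -2.91, SE 0.34, adjusted p = 0.000397). *Acta2*, also made by myofibroblasts, fell by 3.13 on the log2 scale. Tumor 555 was the highest tumor for these genes, with 579 next, and the summed level of the list was 306 to 1057 CPM in tumors against 4986 to 6584 CPM in colons. Of 16 enteric neuron genes 14 fell and 0 rose (1 with the mouse as a block), and of 12 genes of enteric glia and the pacemaker cells 7 fell and 2 rose, and 0 or 1 rose when any library except colon 542 was left out. *Elavl4*, a neuronal RNA-binding protein, had 0.192, 0.0295, 0.0269, 0.0963 and 0.151 CPM in tumors against 2.79, 3.03, 4.04 and 2.23 CPM in D80 colons (log2 fold change -4.86, SE 0.47, adjusted p = 0.000253). *Kit*, which marks pacemaker cells and also mast cells, had 7.75, 6.2, 8.15, 9.87 and 6.02 CPM in tumors against 55, 42.2, 52.2 and 35.5 CPM in D80 colons (log2 fold change -2.60, SE 0.22, adjusted p = 0.000141). All 10 adipocyte genes tested fell, with a median of -5.43. *Cfd*, encoding adipsin (chromosome 10, 79890853 to 79892655, plus strand), had 0 counts in all 5 tumors and 18.4, 21.1, 9.92 and 5.47 CPM in colons, at least 887-fold lower in tumors when 3 counts over the group are taken as the floor. *Adipoq*, encoding adiponectin, was detected in 1 of 5 tumors, with 0, 0, 0, 0.0482 and 0 CPM in tumors against 6.78, 7.39, 2.95 and 7.0 CPM in D80 colons (log2 fold change -8.78, SE 0.67, adjusted p = 9.26e-05), and *Car3* fell by 6.04 on the log2 scale. The log2 fold change of *Adipoq* was -10.74 without tumor 555.

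The CArG box, the motif bound by serum response factor in many muscle genes, was in 482 of 32851 RefSeq windows of 250 bases (1.47%) and in 1 of 13 windows of 12 smooth muscle genes found there, that of *Myl9* (chr2:156775214-156775463, plus strand). It is shown in capitals, for its place 161 bases before the start, and binding was not tested.
Myl9: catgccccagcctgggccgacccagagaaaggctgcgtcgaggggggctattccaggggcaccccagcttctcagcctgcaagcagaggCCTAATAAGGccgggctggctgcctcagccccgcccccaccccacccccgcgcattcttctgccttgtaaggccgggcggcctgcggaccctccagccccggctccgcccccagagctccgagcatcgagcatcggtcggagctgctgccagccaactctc

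Of 24 fibroblast and matrix genes 0 rose and 4 fell (median 0.24, or -0.07 without WT D80 colon 581, and 1 that rose without WT D80 colon 542). *Lum*, encoding the proteoglycan lumican, was one of those that fell, at 3.69, 3.6, 3.58, 13.1 and 6.42 CPM in tumors against 51.4, 57.8, 46.7 and 66.7 CPM in D80 colons (log2 fold change -3.19, SE 0.41, adjusted p = 0.000641). Genes of matrix metalloproteinases, which cleave extracellular matrix, and of their inhibitors (*Timp1*, *Timp2* and *Timp3*) were counted as a single list. In it 9 of 16 rose and 0 fell, with a median of 1.47. *Mmp13*, a collagenase, had 289.9, 451, 226, 62.3 and 258 CPM in tumors against 8.04, 36.1, 5.1 and 5.54 CPM in D80 colons (log2 fold change 4.23, SE 0.79, adjusted p = 0.00343). *Mmp10*, a stromelysin, had 157, 294, 158, 48.4 and 238 CPM in tumors against 10.6, 39.6, 5.83 and 4.52 CPM in D80 colons (log2 fold change 3.56, SE 0.76, adjusted p = 0.00682). In both, tumor 555 was the lowest tumor and colon 542 the highest colon. The inhibitor gene *Timp1* and the membrane-bound *Mmp14* rose by 1.79 and 1.89 on the log2 scale. Stromal growth factor genes went both ways, with 4 of 23 up and 6 down. *Fgf10* fell by 2.70 and *Bmp3* by 2.29 on the log2 scale, whereas *Bmp7* rose, at 18.2, 38.2, 29.4, 31.7 and 42.7 CPM in tumors against 7.5, 11, 5.62 and 2.8 CPM in D80 colons (log2 fold change 2.24, SE 0.39, adjusted p = 0.00254). Of 16 endothelial genes 2 rose and 1 fell, and 1 rose and 4 fell without WT D80 colon 581, 3 fell with the mouse as a block, and 1 rose when any other library except tumor 534 or 542 was left out. *Angpt2*, made by endothelium that is remodeling, had 17.4, 16.3, 12.7, 9.78 and 19.7 CPM in tumors against 3.25, 4.02, 1.79 and 1.21 CPM in D80 colons (log2 fold change 2.55, SE 0.38, adjusted p = 0.00113). Among 8 EGFR ligands and receptors tested *Egf* alone passed, at 0.432, 0.0591, 0.43, 0.867 and 0.378 CPM in tumors against 4.47, 3.15, 4.71 and 3.31 CPM in D80 colons (log2 fold change -3.15, SE 0.50, adjusted p = 0.00157), or 2 fell without WT D80 colon 581 and 1 rose without colon 542 or colon 555. Without colon 542 the log2 fold changes of *Mmp13* and *Mmp10* were 5.37 and 4.67.

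Neutrophil genes rose in 10 of 14 tested and fell in 0, with a median change of 1.94 (log2), and the number that rose was 4 without WT D80 colon 541, 4 without colon 555, 6 without WT tumor 541 and 6 without tumor 542. *S100a8*, a calprotectin subunit, had 48.4, 43.8, 87.6, 18 and 25.2 CPM in tumors against 1.63, 11, 1.06 and 1.97 CPM in D80 colons (log2 fold change 3.50, SE 0.79, adjusted p = 0.00874). *Ltf*, encoding lactoferrin, which neutrophils and some glandular epithelia make, had 521, 754, 1096, 7.95 and 9.88 CPM in tumors against 3.55, 4.79, 1.37 and 0.827 CPM in D80 colons (log2 fold change 7.48, SE 1.64, adjusted p = 0.00762). Tumors 555 and 579, the lowest for *Krt5*, were also the lowest for *Ltf*. The granule genes that define immature neutrophils, *Ngp*, *Camp*, *Mpo* and *Elane*, named after their values were seen, were at or near 0 in both tissues, with *Elane* at 0 counts in all 9 libraries, and were too low to test. Of 27 cytokine and chemokine genes 15 rose and 4 fell, with a median of 1.51, and 9 rose without WT D80 colon 541 or colon 555. *Cxcl5*, a chemokine that attracts neutrophils, had 162, 164, 463, 94.8 and 153 CPM in tumors against 3.57, 17.2, 4.33 and 2.93 CPM in D80 colons (log2 fold change 4.88, SE 0.74, adjusted p = 0.00126). *Cxcl3*, a chemokine of the same family, rose by 4.91 on the log2 scale. *Ppbp*, another of that family, was uneven, with 110, 139, 363, 3.03 and 12.9 CPM in tumors against 0.414, 0.773, 0.363 and 0.827 CPM in D80 colons (log2 fold change 7.77, SE 1.42, adjusted p = 0.00307). Its tumors stood in the order given above for *Krt6b*. *Il11*, a stromal cytokine of the IL-6 family, had 13, 21.9, 10.2, 3.23 and 21.6 CPM in tumors against 0.632, 1.89, 0.337 and 0.382 CPM in D80 colons (log2 fold change 4.08, SE 0.71, adjusted p = 0.00238). *Il23a*, a subunit of IL-23, had 6.93, 2.66, 5.97, 3.73 and 8.44 CPM in tumors against 0.131, 0.433, 0.388 and 0 CPM in D80 colons (log2 fold change 4.42, SE 0.64, adjusted p = 0.00103). *Cxcl12*, a chemokine of stromal cells, fell, with 14.1, 11, 13.9, 23 and 14.4 CPM in tumors against 58.7, 47.1, 61.7 and 74.8 CPM in D80 colons (log2 fold change -1.99, SE 0.24, adjusted p = 0.000447). Of 18 epithelial defence genes 5 rose and 2 fell, or 4 fell without WT D80 colon 581, without tumor 555 or with the mouse as a block. *Lcn2*, which withholds iron from bacteria, rose by 3.31 and *Wfdc18* by 2.61, and *Nox1*, the epithelial NADPH oxidase, fell by 1.97 on the log2 scale. With tumor 542 left out the log2 fold change of *Ppbp* was 6.85. The log2 fold changes of *S100a8*, *Cxcl5*, *Cxcl3*, *Il11* and *Lcn2* were 4.86, 5.83, 5.99, 4.92 and 4.27 without colon 542.

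Macrophage markers did not move together. Of 18 monocyte and macrophage genes tested 1 rose and 4 fell, with 2 that rose without WT D80 colon 542 and 2 that fell with the mouse as a block. *Cd163*, a scavenger receptor of resident macrophages, had 0.048, 0.0886, 0.0538, 0.169 and 0.0504 CPM in tumors against 3.88, 2.5, 3.73 and 2.55 CPM in D80 colons (log2 fold change -5.21, SE 0.40, adjusted p = 9.26e-05). *Adgre1*, which encodes F4/80, had 3.72, 7.26, 9.31, 10.3 and 6.68 CPM in tumors against 28.7, 25.4, 24.5 and 40.3 CPM in D80 colons (log2 fold change -1.995, SE 0.30, adjusted p = 0.00116). *Arg1*, an enzyme of arginine breakdown in some macrophages, was the member that rose, at 132, 130.4, 315, 40.9 and 84.3 CPM in tumors against 4.99, 15.1, 2.23 and 3.25 CPM in D80 colons (log2 fold change 4.46, SE 0.77, adjusted p = 0.00239). Dendritic cell genes fell in 6 of 13. *Xcr1* and *Flt3*, receptors of dendritic cells, fell by 2.003 and 2.22 on the log2 scale. *Dnase1l3*, which encodes a DNase secreted by dendritic cells and macrophages (chromosome 14, 7964533 to 7994573, minus strand), was at 5.64, 2.01, 9.66, 9.95 and 4.61 CPM in tumors against 3.29, 8.29, 9.27 and 4.58 CPM in D80 colons, the groups overlapped, and the log2 fold change was 0.00 (SE 0.47, adjusted p = 0.999). Tumor 541 was its lowest tumor and colon 541 its lowest colon. Without colon 542 the log2 fold change of *Arg1* was 5.33.

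B and plasma cell genes fell in 13 of 21 and rose in 0, and the median change was -2.68 (log2). *Derl3*, an endoplasmic reticulum gene of secreting cells, had 1.44, 1.36, 1.91, 1.54 and 1.11 CPM in tumors against 11.7, 9.86, 5.54 and 10.6 CPM in D80 colons (log2 fold change -2.68, SE 0.27, adjusted p = 0.000278). *Jchain*, the joining chain of IgA and IgM, had 325, 115, 279, 365 and 67.2 CPM in tumors against 2216, 1797, 1223 and 3757 CPM in D80 colons (log2 fold change -3.29, SE 0.54, adjusted p = 0.00186). Of 208 immunoglobulin genes tested 162 fell and 0 rose. T cell genes were mostly at levels that did not pass: of 19 tested 1 rose and 2 fell, or 4 without WT D80 colon 581. Of all genes tested 8.00% rose and 13.5% fell. *Cd4* had 2.09, 2.75, 3.55, 3.47 and 1.11 CPM in tumors against 17.8, 12.4, 14.5 and 4.58 CPM in D80 colons (log2 fold change -2.25, SE 0.43, adjusted p = 0.00373) and *Cd28* fell by 2.59 on the log2 scale. *Trdc*, the constant region of the γδ T cell receptor, rose, with 2.09, 3.31, 4.12, 0.819 and 2.72 CPM in tumors against 0.632, 0.556, 0.466 and 0.573 CPM in D80 colons (log2 fold change 2.22, SE 0.44, adjusted p = 0.00457). Tumor 579 was the lowest tumor for *Cd4* and *Cd28*. Of 10 MHC class II genes 0 rose and 1 fell, with 0 to 2 that fell with a library left out and 0 with the mouse as a block. Their summed level was 427 to 2969 CPM in tumors, with 579 the lowest, and 1571 to 2521 CPM in colons. *Cd74*, the invariant chain of MHC class II, had 737, 1689, 866, 656 and 207 CPM in tumors against 949, 622, 607 and 242 CPM in D80 colons, and the groups overlapped (log2 fold change 0.46, adjusted p = 0.563).

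IFN-stimulated genes were uneven among the tumors. Of 28 tested 5 rose and 0 fell, the median change was 1.45 (log2), and their summed level was 507 to 4558 CPM in tumors and 582 to 954 CPM in colons. Tumor 541 was the highest. *Usp18*, a negative regulator of IFN signaling, had 22.9, 108, 44.4, 13 and 15.8 CPM in tumors against 7.3, 7.51, 4.79 and 7.13 CPM in D80 colons (log2 fold change 2.61, SE 0.63, adjusted p = 0.0116). *Ifit3*, an antiviral effector, had 42.4, 310.0, 75, 20.6 and 16.6 CPM in tumors against 14.1, 14.7, 14.3 and 9.55 CPM in D80 colons (log2 fold change 2.82, SE 0.85, adjusted p = 0.0305). *Gbp2*, a GTPase induced by IFN-γ, had 369, 724, 361, 141 and 51.7 CPM in tumors against 83.2, 94.3, 66.6 and 18.6 CPM in D80 colons (log2 fold change 2.33, SE 0.73, adjusted p = 0.0357). The number that rose was 3 without WT D80 colon 581, 1 without colon 541, colon 542 or colon 555, 2 without WT tumor 534, tumor 541 or tumor 542, 8 without tumor 555 and 12 without tumor 579. It was 14 with DESeq2 and 11 with the mouse as a block. With the mouse as a block, *Ifit3* had an adjusted p of 0.0549. *Ifit3* was at an adjusted p of 0.072 without colon 541, 0.0636 without colon 542 and 0.0717 without colon 555. *Gbp2* was at 0.0698, 0.0543 and 0.0826 without the same colons, and at 0.0673, 0.0828 and 0.0651 without tumors 534, 541 and 542. With tumor 541 left out the log2 fold changes of *Usp18* and *Ifit3* were 1.85 and 1.56.

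Prostaglandin genes, long studied in colon tumors, went both ways. Of 16 tested 3 rose and 5 fell. *Hpgd*, which degrades prostaglandin E2, had 15.1, 8.8, 14.6, 42.8 and 31.9 CPM in tumors against 91.4, 73.4, 108 and 247 CPM in D80 colons (log2 fold change -2.52, SE 0.52, adjusted p = 0.00542). *Ptgis*, the prostacyclin synthase, had 1.94, 1.3, 1.64, 2.75 and 1.51 CPM in tumors against 10.7, 7.91, 10.8 and 21.5 CPM in D80 colons (log2 fold change -2.79, SE 0.34, adjusted p = 0.000463), and the prostaglandin transporter gene *Slco2a1* fell by 1.44 on the log2 scale. *Ptgs2*, which encodes the inducible cyclooxygenase and was named after its value was seen, averaged 21.6 ± 5.1 CPM in tumors and 8.03 ± 4.55 CPM in D80 colons (SD, n = 5 and 4; log2 fold change 1.42, adjusted p = 0.0146). Its adjusted p was 0.0598 in the 3 mice with both tissues. Of the 16 prostaglandin genes, 1 rose without WT tumor 541. Of 16 immediate early and stress genes 2 rose and 0 fell. The count was 1 that rose and 1 that fell with the mouse as a block, 3 and 1 without WT D80 colon 581, and 1 that rose without colon 541 or without any tumor but 541. *Ier3*, an early response gene, rose, with 87.3, 56, 89.9, 56.5 and 92.5 CPM in tumors against 11.8, 26.5, 14 and 19.4 CPM in D80 colons (log2 fold change 2.09, SE 0.30, adjusted p = 0.000936). Of 13 mitochondrially encoded mRNAs 9 fell, and 4 without WT D80 colon 581, the library with the largest share of them. Without any of the tumors in turn 1 fell. Of the other lists, mast cell genes rose in 4 of 9, and in 0 to 2 without colon 541, 542 or 555 or tumor 534 or 542, and in 2 with the mouse as a block. Notch pathway genes rose in 2 of 13, and cytotoxic lymphocyte genes fell in 1 of 12, with 0 that fell without colon 541, 542 or 555 or tumor 534, 542 or 579, 2 without colon 581, and 3 that rose without tumor 579 or with the mouse as a block. Immune checkpoint genes fell in 2 of 10, and in 1 with the mouse as a block or without colon 541 or 542 or tumor 534 or 579. Small-intestinal enterocyte genes fell in 4 of 8, and skeletal muscle genes fell in 1 of 6, or in 2 without colon 581, with 1 that rose without colon 581, tumor 534 or tumor 579 or with the mouse as a block. The shares over all genes tested, for these small lists too, were 8.00% that rose and 13.5% that fell.

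The same contrast could be made in *Dnase1l3*-KO mice, with 3 KO tumor and 4 KO D80 colon libraries that share no sample with the WT contrast. There 2006 genes (10.3% of 19457) rose and 3189 (16.4%) fell. Of the 1482 genes that rose in WT and were tested in KO, 830 rose in KO as well (56.0%, and 42.7% of the 1945 that rose in KO and were tested in both), and 0 fell. Of 2538 that fell in WT, 1871 fell in KO (73.7%, and 64.1% of 2921 in KO), and 0 rose. By list, Wnt targets rose in 13 of 20 in KO (median 1.62), squamous genes in 15 of 22 (3.38), and posterior HoxD genes again made up the posterior Hox calls (5 of 11), while 16 of 16 smooth muscle genes fell. Of 28 IFN-stimulated genes 5 rose and 0 fell in WT (median 1.45), and 0 rose and 7 fell in KO (median -0.62). Counts of other lists differed too. Neutrophil genes rose in 10 of 14 in WT and 2 of 15 in KO, and Paneth cell genes in 9 of 11 and 2 of 11. Both WT counts dropped when single libraries were left out, as given above, for example to 6 and 5 without WT tumor 542. T cell genes fell in 2 of 19 in WT and 13 of 19 in KO. Mitochondrially encoded mRNAs fell in 9 of 13 in WT (median -1.86) and 0 of 13 in KO (median 0.43). Without WT D80 colon 581, the library with the largest share of them, 4 of 13 fell in WT (median -0.87). The difference between the contrasts was tested for each gene by the interaction of genotype and tissue, in which 0 of 20391 genes (0%) were called by edgeR's quasi-likelihood test, 2385 had an unadjusted p under 0.05, and DESeq2 and voom called 0 each. With the mouse as a block it called 1 gene, *Cpb1* (log2 difference 10.59, adjusted p = 0.00139), named after its value was seen. Among IFN-stimulated genes the lowest adjusted p was 0.419, with a median interaction of 2.43 on the log2 scale, so no gene of the list passed. A p that misses the threshold does not show that the contrasts are alike.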

How the data were processed

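Bulk RNA-seq of mouse colon and colon tumors was analyzed from the gene-level read counts that the authors deposited, which are not normalized. Per the labels the reads were checked with FastQC (0.11.5), aligned to mm10 with STAR and counted with Subread. The strand setting is not given in the sources used here. Every count column was matched to a sample by its name (0 columns without a sample). No table of the authors' own comparisons was used.

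Counts of the 9 WT libraries were fitted with edgeR 4.0.16 (R 4.3.3; TMM, filterByExpr, legacy quasi-likelihood F test, Benjamini-Hochberg adjustment over all genes tested), and a gene was called where its fold change exceeded 2 with an adjusted p below 0.05. The SE of the log2 fold change was derived from the test, as its absolute value divided by the square root of the F statistic. The interaction used WT and KO tumor and D80 libraries. Genes were named by a rule: the 12 largest increases and decreases among called genes with non-overlapping groups and at least 5 CPM in the higher group, up to 6 members per list by p, members of a subfamily or that moved against their list, and *Dnase1l3*. Some genes that it names are not reported here. Genes outside it are said to be chosen after their values were seen. The members and gene lists were chosen with earlier results of these data known. Alternatives used DESeq2 1.42.0 and limma 3.58.1. The scripts were tested on simulated data.

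Tumor and colon libraries from the same mouse, by the mouse number in the titles, pair 3 of the mice. The correlation of their deviations from the group means was 0.0479 (mouse 541), 0.0938 (542) and 0.2195 (555). For a tumor and a colon of different mice it was -0.1676 to 0.0778, so mice 542 and 555 lay above that range. Libraries are separate animals within a group. Promoter sequence came from RefSeq (GRCm38.p6).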

Additional observations from a re-analysis of the deposited data

Results flagged for a closer look

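A library was singled out where its gap to the nearest other library of its group, as a share of the group's whole range, passed Dixon's 95% critical value. Of 392 groups checked, over list means of log2 CPM and over the CPM of the genes named here, 51 passed. The critical value flags about 1 in 20 for independent, normally distributed values. Genes of a library are not independent and CPM were not checked for normality, so the 51 cannot be set against that rate. Of these, 16 were in tumors, 17 in WT D80 colon 581 and 18 in the other colons. The value after each name is that share of the range.

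Among list means, WT tumor 541 was set apart as the lowest library for claudins (0.756) and mitochondrially encoded mRNAs (0.802). WT tumor 579 was set apart as the lowest library for MHC class II genes (0.908). WT D80 colon 541 was set apart as the highest library for MHC class II genes (0.833). WT D80 colon 581 was set apart as the highest library for mitochondrially encoded mRNAs (0.967). WT D80 colon 581 was set apart as the lowest library for anterior Hox genes (0.972), gut identity factors (0.895), Notch pathway genes (0.906) and endothelial genes (0.908).

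Among single genes, WT tumor 534 was set apart as the highest library for *Hoxb5* (0.741) and *Mptx1* (0.735). WT tumor 541 was set apart as the highest library for *Camp* (0.865), *Ephb2* (0.830), *Ifit3* (0.801) and *Pla2g2a* (0.714). WT tumor 542 was set apart as the highest library for *Cxcl5* (0.812) and *Gsta4* (0.728). WT tumor 555 was set apart as the highest library for *Adipoq* (1), *Cxcl12* (0.716) and *Rspo1* (0.825). WT tumor 579 was set apart as the highest library for *Pla2g4c* (0.777) and *Wfdc18* (0.762). WT D80 colon 542 was set apart as the highest library for *Cxcl5* (0.902), *Krt14* (0.853), *Lcn2* (0.949), *Lyz1* (0.834), *Mmp13* (0.905), *Mpo* (1), *Notum* (0.878), *Otop1* (0.847), *Plaur* (0.831), *S100a8* (0.909), *Serpinb11* (0.837), *Tmprss11d* (1), *Tnfrsf19* (0.908) and *Wif1* (0.856). WT D80 colon 555 was set apart as the highest library for *Ngp* (1). Where the share is 1 the rest of the group was tied, and the library set apart was itself near 0. It had 0.048 CPM for *Adipoq*, 0.031 for *Mpo*, 0.062 for *Tmprss11d* and 0.026 for *Ngp*, which rest on very few reads. WT D80 colon 555 was set apart as the lowest library for *Adipoq* (0.862) and *Usp18* (0.858). WT D80 colon 581 was set apart as the highest library for *Acta2* (0.864), *Cldn15* (0.969), *Ctxn3* (0.871), *Mptx1* (0.937), *Mptx2* (0.937), *Nmu* (0.952), *Nox1* (0.850), *Retnla* (0.953), *Retnlb* (0.864) and *Slc30a10* (0.853). WT D80 colon 581 was set apart as the lowest library for *Ephb2* (0.893) and *Ifit3* (0.878). No cause of these positions was tested.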

How the results depend on the processing

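Against 4090 genes called (1520 rose and 2570 fell), a filter of at least 10 counts in every library gave 2625 (913 rose and 1712 fell), by testing fewer genes, and a single fit of all 32 libraries gave 2450 that rose. Leaving out each library in turn gave 3376 to 5002 calls, 1191 to 1743 that rose and 2149 to 3259 that fell. With the mouse as a replicate block 1593 rose and 2820 fell. For the genotype by tissue interaction the block gave 1 call, *Cpb1* (log2 10.59, adjusted p = 0.00139), named after its value was seen, and leaving out each library in turn gave 0. Without WT D80 colon 581 and 542, an alternative chosen after seeing the data, 1821 rose and 3286 fell. Of 137 named genes that were called, 128 kept their call in each of the 24 alternatives that tested them, and 9 did not: *Defa21*, *Gbp2*, *Hoxd8*, *Ifit3*, *Krt5*, *Lgr5*, *Lyz1*, *Pla2g4c* and *Ptgs2*. The cause was not tested.

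*Dnase1l3*, near 0 in the comparison, changed sign to -0.011 with the filter of at least 10 counts, -0.10 with the mouse as a replicate block, -0.13 without colon 581, -0.22 without colon 541, -0.19 without tumor 542, -0.22 without tumor 555, -0.007 without immunoglobulin genes and -0.10 without colon 581 with the block, and *Cd74* to -0.28 with voom. Leaving out each library in turn gave *Dnase1l3* -0.219 to 0.242. Precision is limited by 5 and 4 libraries, and for genes with few counts by counting error.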
